A study of Mus musculus with 21 samples.

Results

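Pitx1, Lhx6, Lhx8, Barx1 and Gbx2 are 5 homeobox genes of the first pharyngeal arch, the embryonic swelling that builds the jaws. They were taken by gene symbol from the 24594 genes of each of 2 count tables, which hold 21 mouse RNA-seq libraries in 7 groups of 3, and all 5 were found in both tables and passed the expression filter in both. One table, the genotype series, covers pharyngeal arches PA2 and PA3 of E10.5 embryos (E for embryonic day), dissected from the wild type (WT) and from HIRE1del animals, which are homozygous (HIRE1del/del in the labels) for a CRISPR-Cas9 deletion of HIRE1, a distal regulatory region targeting Hoxa2. The study reports that HIRE1 is needed for Hoxa3 expression as well. The other, the stage series, covers cranial neural crest cells (CNCCs) of WT embryos, which were sorted at 3 stages, as PA2 cells at E10.5 and as cells of the pinna (the external ear, a PA2 derivative) at E12.5 and E14.5. The stage embryos were Wnt1::Cre;ROSARFP, in which a Wnt1 promoter active in premigratory crest marks the crest and its descendants permanently with a red reporter. For the genotype series the labels name crest cells, but the study states a sort for reporter embryos only and describes dissected arches here. All mice were kept on a mixed C57Bl/6J; CD1 background, the study states that cells of embryos of both sexes were pooled, and replicates are described as independent biological ones. First-arch libraries were not analysed here.

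Homeobox genes encode transcription factors that bind DNA through a homeodomain, and in the arches they set which skeletal element the crest mesenchyme will make. In the first arch, FGF8 from the oral ectoderm induces Lhx6, Lhx8, Barx1 and Pitx1 in the mesenchyme beneath it, and the crest there expresses no Hox gene. In PA2 the crest expresses Hoxa2, a homeodomain factor that selects second-arch identity and holds several of these genes down, and without Hoxa2 the second arch makes a mirror copy of first-arch skeleton. Pitx1, of the bicoid-related class, shapes the lower jaw and the hindlimb. Lhx6 and Lhx8 are LIM-homeodomain factors of tooth-forming and palatal mesenchyme, Barx1 is a Bar-class factor of the molar-forming jaw mesenchyme and of the stomach, and Gbx2 is best known for positioning the border of midbrain and hindbrain and for its part in pharyngeal arch and ear development.

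The genes lie at 5 separate places in the genome (GRCm38, GENCODE M21). Pitx1 (ENSMUSG00000021506) spans 55825051 to 55836192 on the minus strand of chromosome 13, and Barx1 (ENSMUSG00000021381) spans 48662998 to 48666507 on the plus strand of the same chromosome. Lhx6 (ENSMUSG00000026890) spans 36081953 to 36105408 on the minus strand of chromosome 2, and Lhx8 (ENSMUSG00000096225) spans 154306294 to 154330659 on the minus strand of chromosome 3. Gbx2 (ENSMUSG00000034486) spans 89927956 to 89931179 on the minus strand of chromosome 1. Gbx2 is the least certain of them, because 946 of its exon bases (43.5%) also belong to the exons of D130058E05Rik on the other strand. Of the exon bases of Pitx1, 165 (6.21%) lie in the antisense gene Gm47071 and 108 (4.07%) in Gm28760 on its own strand, and 104 (2.16%) of those of Lhx6 lie in Gm27953 on its own strand. The library kit is described as unstranded, while the counting is described as taking the opposite orientation. The counts may therefore hold or lack reads of antisense partners, and none of the partners named here has a row of its own in the tables. Lhx8 and Barx1 share no exon base with another gene.

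The sequence just before the start of 4 of the genes is shown because it is the DNA nearest to the start of genes that PA2 holds at such different levels, and because the 4 stretches differ in make-up. They were taken from RefSeq promoter windows (GRCm38.p6), which matched 4 of the 5 genes and no entry of Pitx1, and are given 5′ to 3′ on the strand of the gene, without any base that GENCODE places inside the gene. Capitals mark TAAT, the core bound by many homeodomains, on either strand. For Lhx6, the outermost of 3 starts is shown.
Gbx2 chr1:89931180-89931426, minus strand: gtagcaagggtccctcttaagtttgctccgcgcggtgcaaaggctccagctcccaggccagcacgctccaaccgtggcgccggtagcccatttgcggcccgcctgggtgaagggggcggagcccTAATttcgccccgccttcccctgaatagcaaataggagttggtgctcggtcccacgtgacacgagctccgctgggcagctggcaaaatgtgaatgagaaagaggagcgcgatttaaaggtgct
Barx1 chr13:48662786-48662997, plus strand: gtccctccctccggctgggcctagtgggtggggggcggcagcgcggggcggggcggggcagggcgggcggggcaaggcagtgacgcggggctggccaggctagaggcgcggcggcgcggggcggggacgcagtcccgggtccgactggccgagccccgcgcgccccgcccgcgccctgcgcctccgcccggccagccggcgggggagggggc
Lhx6 chr2:36105409-36105658, minus strand: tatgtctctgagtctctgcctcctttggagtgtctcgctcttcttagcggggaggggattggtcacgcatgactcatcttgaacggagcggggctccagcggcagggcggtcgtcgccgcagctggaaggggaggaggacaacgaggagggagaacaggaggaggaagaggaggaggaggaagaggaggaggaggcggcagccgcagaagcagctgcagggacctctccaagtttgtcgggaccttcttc
Lhx8 chr3:154330660-154330810, minus strand: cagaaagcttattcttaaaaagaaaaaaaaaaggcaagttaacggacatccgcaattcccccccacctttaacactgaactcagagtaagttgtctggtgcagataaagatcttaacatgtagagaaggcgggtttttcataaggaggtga

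Over the 250 bases before the RefSeq start, the GC content was 85.6% for Barx1, 61.6% for Gbx2, 61.6% for Lhx6 and 46% for Lhx8, against a median of 52.4% over the 32851 windows of all genes. Barx1 held 40 CG dinucleotides there and Lhx8 held 4. Besides TAAT, which 54.9% of all windows hold, the letters TGATNNAT (a joint Hox and Pbx site) and TGACAG (a Meis site) were searched on both strands in the 250 bases. TGATNNAT is found in 7.68% and TGACAG in 15.9% of all windows. Gbx2 held 1 TAAT, and none of the 3 motifs was found in the 250 bases of Barx1, Lhx8 or the outermost start of Lhx6. Of the other 2 Lhx6 starts, the window of the innermost one, at chr2:36104061-36104310 within the gene, held 3 TAAT, at 229, 154 and 73 bases before that start, and the other held none of the motifs. An absence says only that these letters are not in these windows.

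Total counts were 25.8 to 32.2 M per genotype library and 25.8 to 49.1 M per stage library. Levels are given as CPM, the count relative to a library size scaled by TMM, and 3 counts in 1 library correspond to 0.117 CPM or less. Hoxa2 was checked first: in PA2 it was 73.4 to 84.2 CPM in WT and 4.76 to 7.1 CPM in HIRE1del, and in PA3 it was 56.0 to 65.1 CPM in WT and 22.1 to 25.6 CPM in HIRE1del. Every HIRE1del library therefore matched its label. Arches of the genotype series held markers of other tissues, such as a summed 240 to 288 CPM over 8 epithelial genes in PA2, whereas the sorted E10.5 cells had 9.84 to 11.98 CPM over the same genes. Replicate 1 of WT stood apart in both arches, with 0.271 (PA2) and 6.62 CPM (PA3) of Y-linked transcripts against 117 to 268 CPM in the other 10 libraries. Such levels do not bear out an even pool of both sexes in this replicate. No HIRE1del library was as low, so the sex of the pools may differ between the genotypes. In such bulk samples, fewer cells of a type and less RNA per cell cannot be told apart.

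In PA2 lacking HIRE1, 4 of the 5 first-arch genes rose: Pitx1 by the largest factor, then Gbx2, Lhx6 and Barx1, while Lhx8 was not called. Calls rest on edgeR's quasi-likelihood p-values, adjusted by Benjamini-Hochberg over all genes and held to 0.05. By that rule 0.118% of the 14383 genes tested (17) were called higher. The study itself named Gbx2, Pitx1, Lhx6 and Barx1 from these same libraries, so that the count is not independent evidence of the direction. None of the 5 genes was silent in WT PA2, each having at least 30 counts in every WT library.

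Pitx1 was close to absent in WT PA2, at 1.16, 1.51 and 1.39 CPM (30, 43 and 45 counts), and reached 12.6, 16.7 and 21.4 CPM in HIRE1del. The lowest mutant library was far above the highest WT library. The means were 16.9 ± 4.39 and 1.35 ± 0.176 CPM (SD, n = 3 each), and the log2 fold change was 3.64 (SE 0.244, 95% interval 3.11 to 4.16, edgeR adjusted p = 5.85e-06). Pitx1 was called in each of 21 alternative analyses, with a log2 fold change of 3.43 to 3.81.

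Gbx2 measured 3.45, 6.21 and 6.87 CPM in WT PA2 and 15.9, 17.3 and 25.9 CPM in HIRE1del PA2. The groups did not overlap, although replicates of each group spread widely. The mean rose 3.58-fold, from 5.51 ± 1.81 to 19.7 ± 5.43 CPM (SD, n = 3 each), with a log2 fold change of 1.83 (SE 0.295, 95% interval 1.2 to 2.47, edgeR adjusted p = 0.0125). The call was lost without PA2 WT replicate 1 (edgeR adjusted p = 0.0516) and without PA2 WT replicate 2 (edgeR adjusted p = 0.0626).

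Lhx6 was at 4.14, 3.82 and 3.11 CPM in WT PA2 and at 9.96, 9.08 and 12.53 CPM in HIRE1del PA2. Again every mutant library lay above every WT library. The mean rose 2.85-fold, from 3.69 ± 0.529 to 10.52 ± 1.79 CPM (SD, n = 3 each), with a log2 fold change of 1.52 (SE 0.29, 95% interval 0.89 to 2.14, edgeR adjusted p = 0.0378). The call was held in 11 of the 21 alternatives. It was lost when any 1 of the 6 PA2 libraries or PA3 WT replicate 2 or 3 was left out (edgeR adjusted p up to 0.23), without both WT libraries of replicate 1 (edgeR adjusted p = 0.0782) and with limma-voom (adjusted p = 0.118).

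Barx1 was at 57.7, 55.8 and 51.2 CPM in WT PA2. In HIRE1del PA2 its libraries were almost identical, at 94.2, 93.3 and 93.6 CPM. The mean rose 1.71-fold, from 54.9 ± 3.34 to 93.7 ± 0.454 CPM (SD, n = 3 each), and the log2 fold change was 0.77 (SE 0.118, 95% interval 0.52 to 1.03, edgeR adjusted p = 0.00853). The call was lost without PA2 WT replicate 2 (edgeR adjusted p = 0.0503) and without PA2 WT replicate 3 (edgeR adjusted p = 0.0689).

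Lhx8, the closest relative of Lhx6, stood at 14.3, 14 and 12.53 CPM in WT PA2 and at 19.9, 11.3 and 18.7 CPM in HIRE1del PA2. HIRE1del replicate 2 lay below all WT libraries and the other mutant libraries above them, so the groups overlapped. The log2 fold change was 0.29 (SE 0.17, 95% interval -0.08 to 0.66, edgeR adjusted p = 0.692). No alternative called it, and the value ran from 0.14 to 0.50, the ends without HIRE1del replicates 1 and 2.

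**Figure D1:**
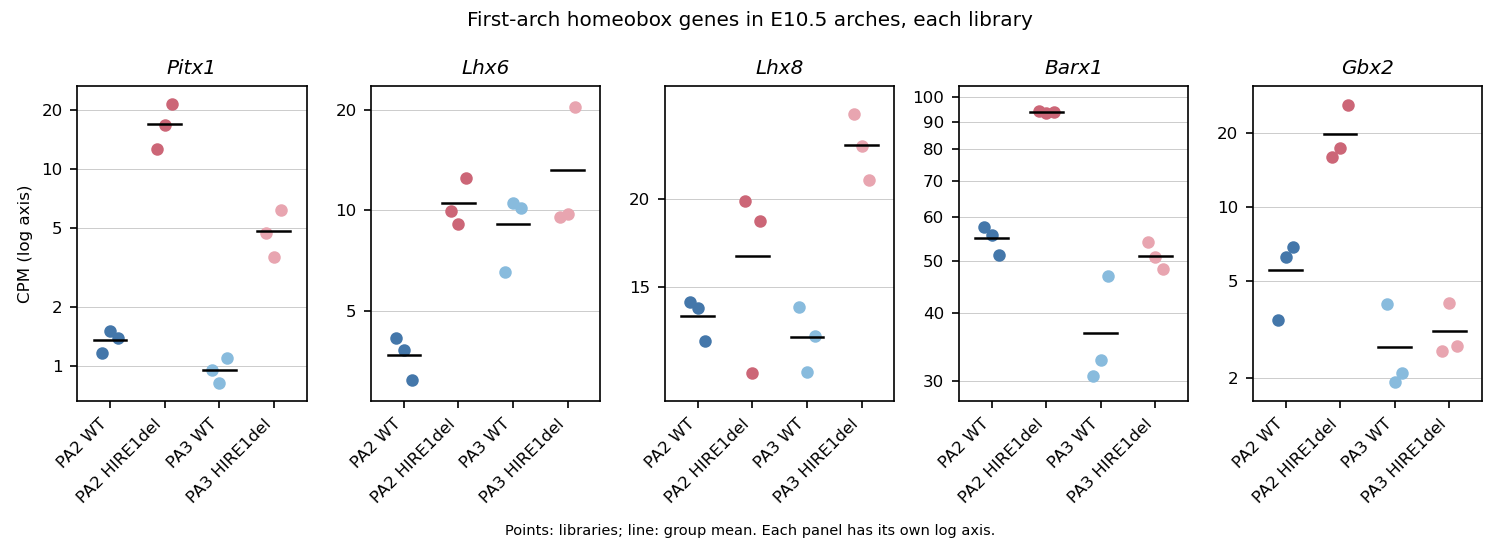
CPM of the 5 genes in each of the 12 libraries of the genotype series (points; the line is the group mean of 3 libraries, and each panel has its own log axis). Mutant PA2 lies above WT PA2 without overlap for Pitx1, Lhx6, Barx1 and Gbx2, and in PA3 without overlap for Pitx1, Lhx8 and Barx1. How many of all genes separate in this way was not counted, so this only describes the points. In PA3 edgeR did not call Lhx8 or Barx1.

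In PA3, where the mutants kept 38.8% of the WT level of Hoxa2 against 7.49% in PA2, Pitx1 alone of the 5 genes was called, beside 0.0556% of all 14383 genes called higher (8). The study reports that Hoxa3 fell more than Hoxa2 in mutant PA3, and the part of either gene in these changes was not tested. The WT libraries of Pitx1 had 0.956, 0.822 and 1.09 CPM and its mutant libraries 4.75, 3.57 and 6.22 CPM, with no overlap. The mean rose 5.06-fold, from 0.957 ± 0.136 to 4.85 ± 1.33 CPM (SD, n = 3 each), with a log2 fold change of 2.33 (SE 0.26, 95% interval 1.77 to 2.89, edgeR adjusted p = 0.00116). It was called in each of the 21 alternatives.

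Lhx8 had the next largest log2 fold change in PA3. It measured 14.04, 11.3 and 12.7 CPM in WT and 26.5, 23.9 and 21.3 CPM in HIRE1del, groups that lie well apart. The mean was 12.7 ± 1.36 CPM in WT and 23.9 ± 2.59 CPM in HIRE1del (SD, n = 3 each), 1.88-fold apart. The log2 fold change of 0.91 (SE 0.169, 95% interval 0.55 to 1.28) had an edgeR adjusted p of 0.0511, just over the threshold. Over the alternatives the adjusted p ran from 8.08e-05 (DESeq2) to 0.23, and 7 of the 21 alternatives called it.

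Barx1 was at 30.7, 32.8 and 46.9 CPM in WT PA3 and at 54.1, 50.8 and 48.2 CPM in HIRE1del PA3. The groups did not overlap, but WT replicate 3 lay close to the mutants. Its log2 fold change was 0.47 (SE 0.121, 95% interval 0.21 to 0.73, edgeR adjusted p = 0.239), and without PA3 WT replicate 3 it was 0.68 (edgeR adjusted p = 0.00136). DESeq2 called 3 of the 5 genes in PA3 (Pitx1, Lhx8 and Barx1) and the same 4 in PA2 as edgeR, beside 0.285% and 0.382% of all genes called higher by that test.

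Lhx6 in PA3 was at 6.54, 10.54 and 10.2 CPM in WT and at 9.54, 9.76 and 20.4 CPM in HIRE1del. Only mutant replicate 3 left the WT range. The log2 fold change was 0.54 (SE 0.27, 95% interval -0.04 to 1.12, edgeR adjusted p = 0.557), and over the alternatives it ran from 0.08, without PA3 HIRE1del replicate 3, to 0.73. Gbx2 was low in both genotypes of PA3, at 4.02, 1.93 and 2.09 CPM in WT and 2.58, 4.06 and 2.71 CPM in HIRE1del. Its groups overlapped, and the log2 fold change was 0.23 (SE 0.336, 95% interval -0.49 to 0.96, edgeR adjusted p = 0.87).

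**Figure D2:**
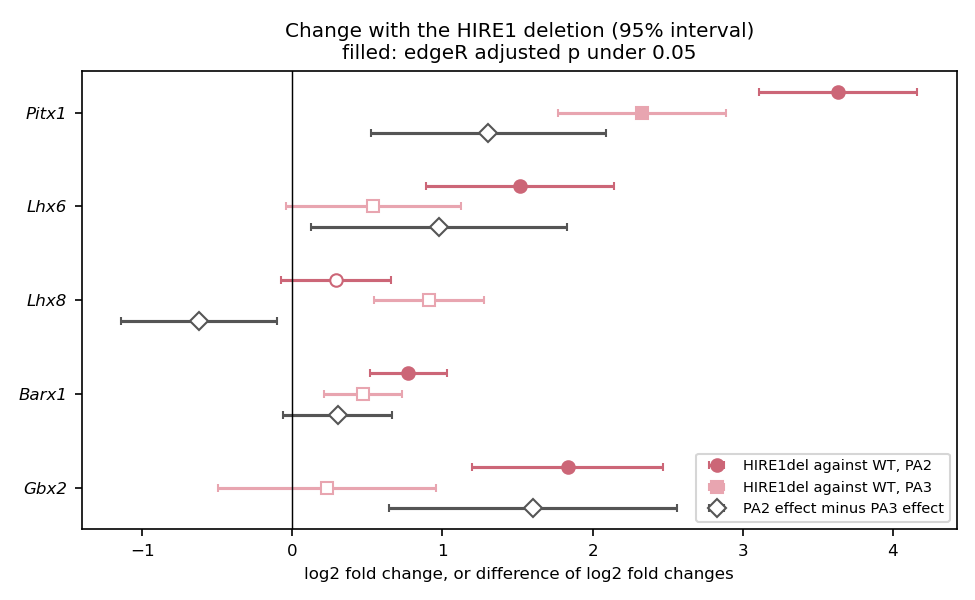
Log2 fold change of HIRE1del against WT in PA2 (circles) and PA3 (squares), and the PA2 effect minus the PA3 effect (diamonds), with 95% intervals from the edgeR fit. Filled symbols, at Pitx1 in both arches and at Lhx6, Barx1 and Gbx2 in PA2, have an adjusted p under 0.05, and no diamond does.

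Whether the arches responded differently was asked by subtracting the PA3 effect from the PA2 effect in the same fit. None of the 5 genes was called by edgeR, by DESeq2, by limma-voom or in any other of the 21 alternatives, and edgeR called 0.0487% of all genes. The difference, PA2 effect minus PA3 effect on the log2 scale, was 1.60 for Gbx2 (SE 0.446, 95% interval 0.64 to 2.56, edgeR adjusted p = 0.752) and 1.31 for Pitx1 (SE 0.362, 95% interval 0.52 to 2.09, edgeR adjusted p = 0.752). It was 0.98 for Lhx6 (95% interval 0.12 to 1.83), 0.30 for Barx1 (-0.06 to 0.67) and -0.62 for Lhx8 (-1.14 to -0.10), each with an edgeR adjusted p of 0.887. Unadjusted, 4 of the 5 genes had p-values of 0.00315 (Pitx1), 0.00319 (Gbx2), 0.022 (Lhx8) and 0.0279 (Lhx6) in the edgeR test, where 794 of all genes had one under 0.05. Over the alternatives the lowest adjusted p was 0.0728 for Gbx2 and 0.207 for Pitx1, and without both WT libraries of replicate 1 the difference for Gbx2 was 0.96. That 4 genes were called in PA2 and 1 in PA3 therefore does not show that the arches differ in these genes.

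**Figure D3:**
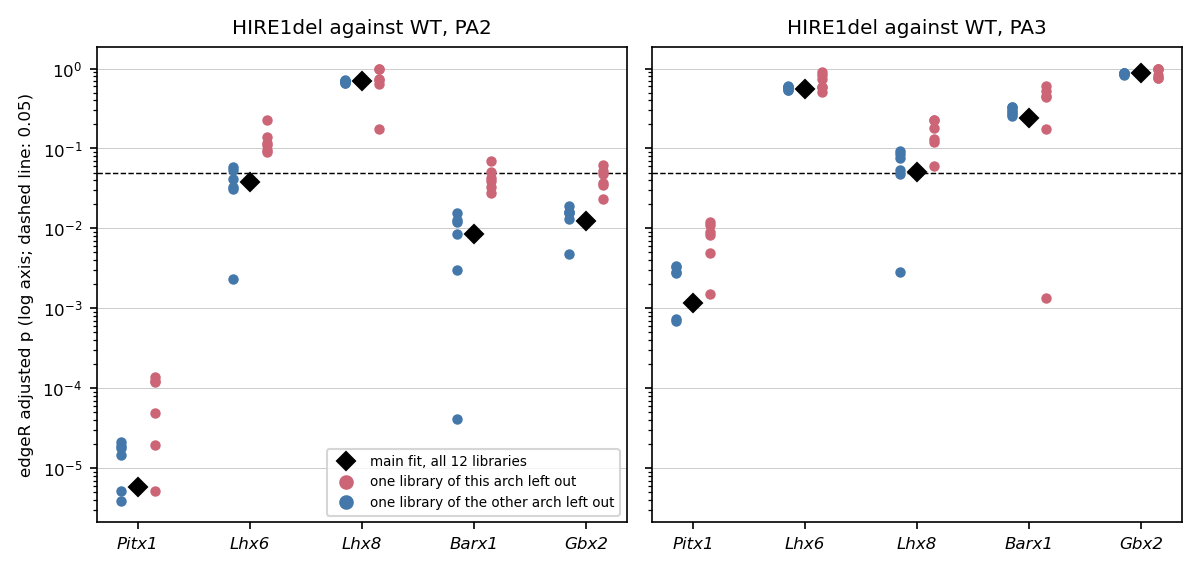
Adjusted p of the edgeR test (log axis, dashed line at 0.05) for each gene in PA2 and PA3 with all 12 libraries (black diamonds) and with 1 library left out (red, of the arch compared; blue, of the other arch). Pitx1 stays under the line in both arches, while the PA2 points of Lhx6, Barx1 and Gbx2 fall on both sides of it.

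The arches also differed before any deletion. In WT, Lhx6 was higher in PA3 than in PA2 by a log2 fold change of 1.31 (SE 0.291, edgeR adjusted p = 0.00352), whereas Barx1 was lower by a log2 fold change of -0.57 (SE 0.12, edgeR adjusted p = 0.00246) and Gbx2 by one of -1.06 (SE 0.322, edgeR adjusted p = 0.0206). These 3 calls stand beside 36.5% of all genes called between the WT arches, so that their number says little about the 5 genes. Pitx1 (-0.50, SE 0.29, edgeR adjusted p = 0.203) and Lhx8 (-0.10, SE 0.172, edgeR adjusted p = 0.69) were not called. Gbx2 overlapped between the arches and lost its call when any of PA2 WT replicates 2 and 3 and PA3 WT replicates 2 and 3 was left out (edgeR adjusted p up to 0.0879), and without both WT libraries of replicate 1 its log2 fold change was -1.70 (edgeR adjusted p = 0.00138).

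Between the mutant arches, Pitx1, Gbx2 and Barx1 were lower in PA3 and Lhx8 was higher. Gbx2 was at 3.12 ± 0.816 CPM in mutant PA3 against 19.7 ± 5.43 CPM in mutant PA2 (SD, n = 3 each), with a log2 fold change of -2.66 (SE 0.312; edgeR adjusted p = 3.34e-05). Pitx1 differed by a log2 fold change of -1.80 (SE 0.214, edgeR adjusted p = 3.77e-05) and Barx1 by one of -0.88 (SE 0.119, edgeR adjusted p = 0.000108). Lhx8 differed by 0.52 (SE 0.167, edgeR adjusted p = 0.0278). Its call was lost in 3 of 12 fits with a library left out, namely PA2 HIRE1del replicate 2 and PA3 HIRE1del replicates 1 and 2, and when only the groups compared were fitted, with edgeR adjusted p-values up to 0.105, and its log2 fold change was 0.31 without PA2 HIRE1del replicate 2. Lhx6 was not called (0.33, SE 0.269, edgeR adjusted p = 0.373), and its direction turned without PA3 HIRE1del replicate 3 (-0.125). The 4 calls stand beside 33.4% of all genes.

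Markers of other tissues differed between the arches. Between the genotypes, edgeR called none of the 8 epithelial, 5 endothelial, 6 muscle, 5 neuronal, 5 blood and 7 neural crest markers in either arch. At an unadjusted edgeR p under 0.05 there was 1 of these markers in PA2 (Tfap2a) and 4 in PA3 (Twist1, Tfap2a, Cdh5 and Tbx1). Of all 14383 genes, 1233 had such a p in PA2 and 1400 in PA3. Of the markers, limma-voom called none and DESeq2 called 1, Twist1 in PA3. The summed neuronal markers were 24.8 to 28.4 CPM in WT PA2 and 15.1 to 21.6 CPM in HIRE1del PA2, the only one of the 6 lists whose ranges did not overlap in PA2. Between the WT arches the blood markers ran from 1346 to 2121 CPM in PA2 and from 10760 to 21410 CPM in PA3, and the epithelial ones from 258 to 288 and from 544 to 698 CPM. The crest markers ran from 993 to 1109 CPM in PA2 and from 655 to 831 CPM in PA3. Between the WT arches 5 of 5 blood, 5 of 5 neuronal, 4 of 5 endothelial and 5 of 8 epithelial markers were called higher in PA3. Of the crest markers, 5 of 7 were called lower. Of all genes, 19.1% were called higher and 17.4% lower in that comparison. The part of these tissues in the differences of the 5 genes was not tested.

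Levels of different genes can be set side by side only per length, and for this CPM was divided by the exon length in kilobases (RPKM). Barx1 led in all 4 genotype groups, from 26.3 ± 6.31 RPKM in WT PA3 to 67.0 ± 0.324 RPKM in mutant PA2 (SD, n = 3 each). In WT PA2 the order was Barx1 (39.2 RPKM), Lhx8 (5.37), Gbx2 (2.58), Lhx6 (0.768) and Pitx1 (0.509), with no overlap between neighbours. In mutant PA2, Gbx2 (9.24 RPKM) stood before Lhx8 (6.56), Pitx1 (6.36) and Lhx6 (2.19), and the libraries of Gbx2 and Lhx8 and those of Lhx8 and Pitx1 overlapped. Pitx1 thereby moved from the lowest of the 5 to a level that overlapped that of Lhx8. In WT PA3 the order was Barx1, Lhx8 (5.02 RPKM), Lhx6 (1.89), Gbx2 (1.26) and Pitx1 (0.36), and Lhx6 and Gbx2 overlapped. In mutant PA3 Lhx8 was second at 9.44 RPKM, and Lhx6 (2.75), Pitx1 (1.83) and Gbx2 (1.46) overlapped with their neighbours.

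**Figure D4:**
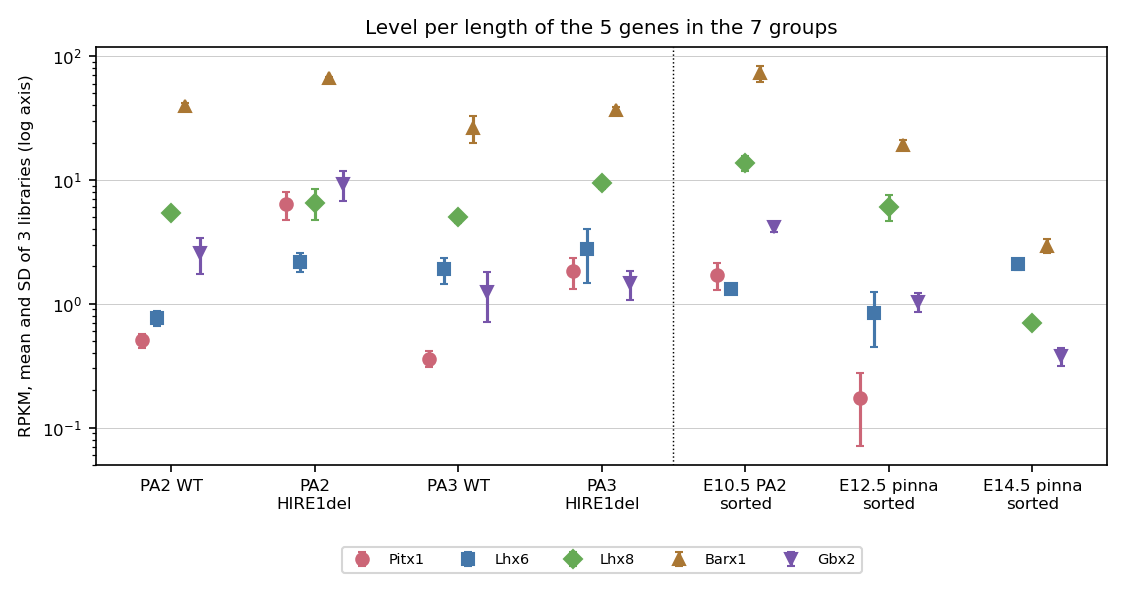
RPKM of the 5 genes in the 7 groups (mean and SD of 3 libraries, log axis; the dotted line divides the tables, which were normalized separately). Barx1 is highest in each group and Pitx1 lowest in WT PA2, WT PA3 and the pinna, and Pitx1 has no point at E14.5 because no count was seen.

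The rest of the pathway was read from lists of related genes. Of 14 homeobox genes of related subfamilies, 8 passed the filter on low counts and edgeR called none between the genotypes in PA2 or PA3. Nor did edgeR call any of 6 genes listed as LIM-domain cofactors (Ldb1, Ldb2, Lmo1, Lmo2, Lmo3 and Lmo4). The same held for 5 FGF ligands, 3 FGF receptors and 10 FGF response genes. At an unadjusted edgeR p under 0.05 there were 3 of the subfamily genes and 2 of the ligands in PA2. In PA3 there were 1 of the subfamily genes and 2 of the cofactors. Of all 14383 genes, 1233 had such a p in PA2 and 1400 in PA3. DESeq2 called Isl1 and Fgf15 lower in PA2 and limma-voom called none. In PA2 the median log2 fold change was -0.23 for the subfamily genes, -0.02 for the cofactors, -0.42 for the ligands, -0.12 for the receptors and -0.03 for the response genes, beside -0.01 over all genes and 1.52 over the 5 first-arch genes. In PA3 the 5 genes had a median of 0.54. None of the nearest relatives was called. Barx2 was at 5.67 ± 0.505 CPM in WT PA2 and 4.87 ± 0.581 CPM in HIRE1del PA2 (SD, n = 3 each). Lhx2 was at 15.2 ± 2.1 CPM in WT PA2 and 10.8 ± 2.12 CPM in HIRE1del PA2 (SD, n = 3 each). The difference in Lhx2 was -0.49 on the log2 scale, with an SE of 0.218 and an edgeR adjusted p of 0.553. Gbx1 stayed under 1 CPM on average in PA2, and Lhx9 was under the filter. Fgf8, the inducer, was at 3.21 ± 0.843 CPM in WT PA2 and 2.67 ± 1.04 CPM in HIRE1del PA2 (SD, n = 3 each; edgeR adjusted p = 0.885).

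Of 19 other patterning genes of the arches, edgeR called 2 higher in mutant PA2 and 1 in mutant PA3, and none lower, while DESeq2 called 6 and 3 in either direction. Alx4, a paired-class homeobox gene of facial mesenchyme, was at 9.06, 12.6 and 9.79 CPM in WT PA2 and 29.7, 29.4 and 47.5 CPM in HIRE1del PA2 (log2 fold change 1.76, SE 0.196, edgeR adjusted p = 0.000538). Rspo2, which encodes a secreted enhancer of WNT signalling, was at 15.2, 15.6 and 15.2 CPM in WT PA2 and 27.9, 31.3 and 29.6 CPM in HIRE1del PA2, which gave a log2 fold change of 0.95 with an SE of 0.0866 (edgeR adjusted p = 0.000105). In PA3 Rspo2 was called too, at a log2 fold change of 0.53 (SE 0.0879, edgeR adjusted p of 0.03). Both were among the genes that the study named from these libraries.

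Over the 12 genotype libraries, the genes whose log2(CPM + 0.5) followed Pitx1 most closely were Alx4 (Pearson r 0.96), Rspo2 (0.957) and Tbx22 (0.952). Those nearest to Gbx2 were B4galt2 (0.954), Cyp2s1 (0.951) and Pola2 (0.935), and those nearest to Barx1 were Slc25a12 (0.949), Tdp1 (0.944) and Nelfa (0.939). Lhx6 was followed by Pcx (0.947) and Lrrtm1 (0.879), and Lhx8 by Polr2g (0.9), Mrpl21 (0.888) and Ssu72 (0.882). Among the 5 genes themselves, r was 0.845 for Pitx1 and Barx1, 0.838 for Barx1 and Gbx2 and 0.766 for Pitx1 and Gbx2. For Lhx6 and Lhx8 it was 0.447, and with Gbx2 it was -0.03 for Lhx6 and -0.01 for Lhx8. These values describe 12 libraries that share arches, genotypes and replicate numbers.

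In the sorted crest of the stage series, 4 of the 5 genes fell at each step from PA2 to the pinna and Lhx6 was lowest at E12.5 and highest at E14.5. Hoxa2 was present throughout, at 122 to 128 CPM at E10.5, 202 to 222 CPM at E12.5 and 147 to 164 CPM at E14.5. All 5 genes were called lower at E12.5 than at E10.5, beside 33.7% of all genes (13438 tested). From E12.5 to E14.5, 4 were called lower, beside 33.1%, and 1 higher, beside 32.6%. Between E10.5 and E14.5, 4 were called lower, beside 40.0%, and Lhx6 higher, beside 42.0%. With backgrounds of this size the counts alone are no result about the 5 genes, and the sizes of the changes are given instead. The counts also include Pitx1, which passed the filter through E10.5 alone.

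Pitx1 was the only one of them that reached zero. It had 3.25, 5.25 and 5.13 CPM at E10.5, 0.149, 0.653 and 0.578 CPM at E12.5 (4, 20 and 17 counts) and no count in any E14.5 library. The stages did not overlap. From E10.5 to E12.5 the mean fell from 4.54 ± 1.12 to 0.46 ± 0.272 CPM (SD, n = 3 each), to 10.1% (log2 fold change -3.27, SE 0.432, edgeR adjusted p = 0.000111). At E14.5 the floor of 3 counts per library is at most 0.0661 CPM, against which Pitx1 was at least 68.7-fold higher at E10.5 and at least 6.96-fold higher at E12.5 (edgeR adjusted p = 1.41e-06 and 0.000345). Only the E10.5 libraries of Pitx1 reached 1 CPM, so it passed the filter through that stage alone and these calls are a description only.

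Barx1 fell from 85.1, 108 and 112 CPM at E10.5 to 29.8, 24.8 and 26.3 CPM at E12.5 and 3.55, 4.31 and 4.53 CPM at E14.5. The stages lay far apart. The E12.5 mean was 26.5% and the E14.5 mean 4.05% of that at E10.5, with log2 fold changes of -1.92 (SE 0.118, edgeR adjusted p = 1.16e-07) to E12.5 and -2.71 (SE 0.134, edgeR adjusted p = 2.94e-08) from E12.5 to E14.5.

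Lhx8 went from 29.4, 37.0 and 37.9 CPM at E10.5 through 19.1, 15.4 and 11.8 CPM at E12.5 to 1.67, 1.96 and 1.71 CPM at E14.5. Its groups were separate at every step. At E12.5 44.4% of the E10.5 mean was left and at E14.5 5.12%, and the log2 fold change was -1.17 to E12.5 (SE 0.157, edgeR adjusted p = 4.9e-05) and -3.11 from there to E14.5 (SE 0.187, edgeR adjusted p = 1.2e-07).

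Gbx2 measured 9.7, 9.23 and 8.01 CPM at E10.5, 2.01, 2.65 and 1.97 CPM at E12.5 and 0.727, 0.736 and 0.963 CPM at E14.5. It was low but present in the pinna, with 33 to 44 counts in each E14.5 library. The means were 24.6% and 9% of the E10.5 level, with log2 fold changes of -2.02 (SE 0.185, edgeR adjusted p = 2.43e-06) and then -1.45 (SE 0.204, edgeR adjusted p = 8.5e-05).

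Lhx6 took another course. It was at 6.19, 6.9 and 6.05 CPM at E10.5, at 2.97, 6.24 and 2.96 CPM at E12.5, and at 9.27, 11.2 and 9.72 CPM at E14.5. At E12.5 replicate 2 lay within the E10.5 range and the other libraries lay below it, while every E14.5 library was above all earlier ones. The difference at E12.5 (log2 fold change -0.65, SE 0.252, edgeR adjusted p = 0.0391) lost its call with total counts as the only scaling, with only the groups compared, and with any 1 of the 3 E10.5 libraries or E12.5 replicate 1 or 3 left out (edgeR adjusted p up to 0.166). Without E12.5 replicate 2, the library within the E10.5 range, the log2 fold change was -1.10 (edgeR adjusted p = 0.000153). The rise to E14.5 was 2.48-fold (log2 fold change 1.31, SE 0.246, edgeR adjusted p = 0.000703) and was called in all 17 alternatives. E14.5 was also above E10.5, by a log2 fold change of 0.66 (SE 0.238, edgeR adjusted p = 0.0232), and this was not called without E10.5 replicate 1 or 3 or E14.5 replicate 2 (edgeR adjusted p up to 0.0717).

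**Figure D5:**
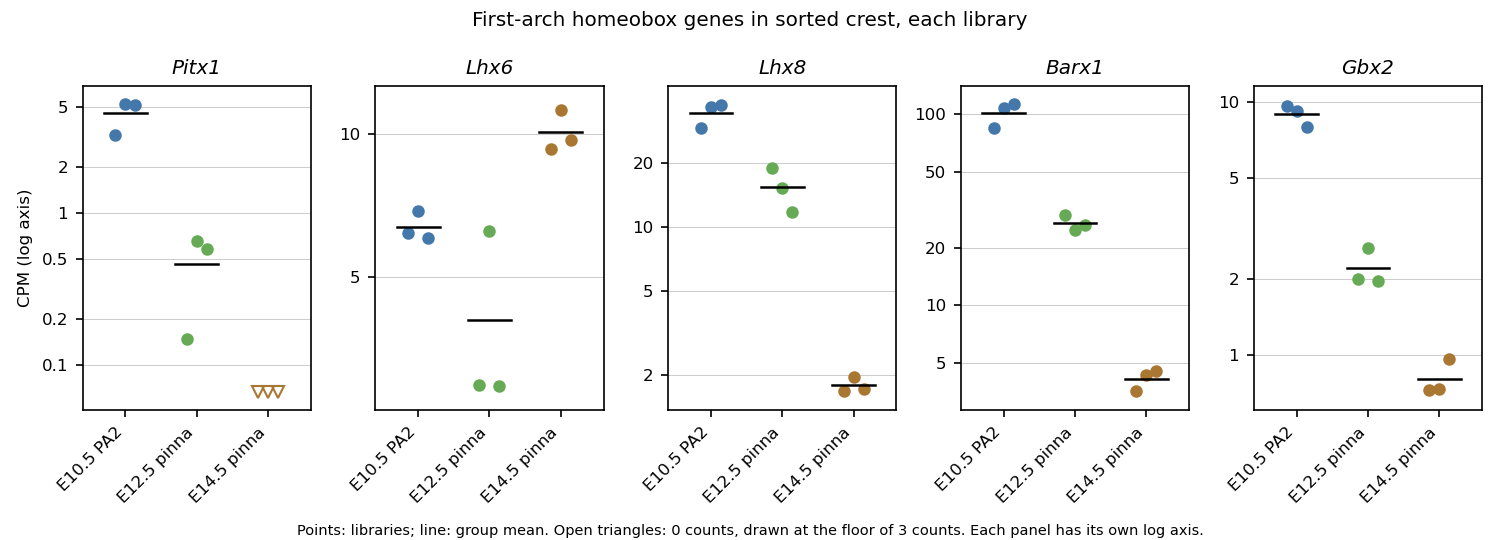
CPM of the 5 genes in each of the 9 libraries of the sorted stage series (points; the line is the group mean, each panel has its own log axis, and open triangles are libraries with 0 counts drawn at the floor of 3 counts). Pitx1, Lhx8, Barx1 and Gbx2 step down from E10.5 to E14.5, and Lhx6 ends highest at E14.5.

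Per length, the order in sorted E10.5 PA2 was Barx1 (72.8 RPKM), Lhx8 (13.7), Gbx2 (4.21), Pitx1 (1.71) and Lhx6 (1.33), and the libraries of Pitx1 and Lhx6 overlapped. At E12.5 it was Barx1 (19.3 RPKM), Lhx8 (6.1), Gbx2 (1.03), Lhx6 (0.844) and Pitx1 (0.173), with overlap of Gbx2 and Lhx6. At E14.5 Lhx6 (2.10 RPKM) stood second behind Barx1 (2.95), before Lhx8 (0.703) and Gbx2 (0.379). Within the endothelial, epithelial, neuronal and crest lists, markers did not all move the same way from E10.5 to E14.5. The marker calls over that span stand beside 42.0% of all genes called higher and 40.0% called lower. Of the 5 endothelial markers, 4 were tested and Kdr alone was called from E10.5 to E14.5, with means of 3.26, 17.97 and 140.9 CPM at the 3 stages, while Pecam1 was at 2.89, 1.70 and 2.43 CPM. The summed endothelial level, 6.79 to 8.99 CPM at E10.5 and 108 to 172.5 CPM at E14.5, was at E14.5 nearly all Kdr. Of the 8 epithelial markers, 6 were tested. From E10.5 to E14.5, 4 were called higher (Cdh1, Krt5, Krt14 and Trp63) and 2 lower (Epcam and Krt18). Krt5, Krt14 and Trp63 reached 1 CPM at E14.5 alone and passed the filter through that stage. Their calls are a description only. The epithelial sums were 9.84 to 11.98 CPM at E10.5 and 27.1 to 45.7 CPM at E14.5. Of the 7 crest markers, 4 were called higher over that span and 2 lower. Pdgfra made up most of their sum, with means of 1008, 2311 and 3004 CPM at the 3 stages, whereas Sox9 had means of 77.9, 30.2 and 1.76 CPM and Prrx1 ended at 319.6 CPM from 359.7 CPM. Neuronal markers summed to 34.3 to 39.7 CPM at E10.5 and 10.9 to 17.4 CPM at E14.5. Of the 3 neuronal markers tested, 2 were called higher over that span and 1 lower. Blood markers summed to 1.74 to 7.0 CPM at E10.5 and 0.883 to 1.335 CPM at E14.5. Muscle markers summed to at most 1.22 CPM at any stage. The part of these cells in the changes was not tested. The E14.5 tissue was also digested with papain and the earlier stages with trypsin, so that digestion and stage cannot be told apart.

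Of the 14 related homeobox genes, 5 passed the filter in the sorted cells. From E10.5 to E12.5, 2 of them were called higher, beside 35% of all genes, and 2 lower, beside 33.7%. From E12.5 to E14.5, 1 was called higher, beside 32.6%, and 1 lower, beside 33.1%. Beside such shares, these counts say little about the related genes. Some passed through a single stage, so these counts are a description only: Lhx9 reached 1 CPM at E14.5 alone (means of 0.0332, 0.105 and 1.69 CPM at the 3 stages) and Isl1 at E10.5 alone (means of 4.64, 0.15 and 0.123 CPM). Barx2, Gbx1 and Fgf8 were under the filter in the sorted cells. The sorted E10.5 PA2 and the dissected WT PA2 of the same day were normalized separately and read differently, and were not compared. Side by side, their means were 4.54 and 1.35 CPM for Pitx1, 6.38 and 3.69 CPM for Lhx6, 34.8 and 13.6 CPM for Lhx8, 102 and 54.9 CPM for Barx1 and 8.98 and 5.51 CPM for Gbx2.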

How the data were processed

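RNA-seq of 21 libraries was used, 12 of the genotype and 9 of the stage series. The authors aligned reads to GRCm38 with QuasR (spliced) and counted alignments over UCSC known-gene exons in the opposite orientation, after base calling with bcl2fastq 2.17 or 2.20 per the submitters' notes. The deposited values are raw counts per gene. Exon length, also deposited, was used for RPKM. Groups followed the labels, and 0 value columns were left unused. The filter kept a gene when 2 or more libraries reached 1 CPM. Each table was fitted whole with edgeR 4.0.16 (R 4.3.3, TMM, quasi-likelihood, two-sided, Benjamini-Hochberg, called under 0.05). DESeq2 1.42.0 and limma 3.58.1 were alternatives, as were other scalings, filters, blocks and left-out libraries. The code was tested on simulated data. The genes and lists were chosen with earlier results of these data known. The text names the 5 genes, Hoxa2, called list genes, Lhx2, Lhx9, Barx2, Gbx1, Fgf8 and the 3 nearest genes by correlation, except some that are not reported here. Same-numbered PA2 and PA3 libraries of a genotype deviated together (r 0.167 to 0.355, each over 0.1). They were taken as paired only in an alternative, a replicate block within genotype. The arch differences, SEs, intervals and adjusted p-values printed above come from the fit without a block, which leaves this pairing out. CPM limits cover counting error only.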

Additional observations from a re-analysis of the deposited data

How the results depend on the processing

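In PA2 the number of the 5 genes called was 4, and 1 to 4 with 1 library left out; the lowest count came without PA2 WT replicate 2, and 2 were called without PA2 WT replicate 1 or 3. In PA3 it was 1, and 1 to 2 with 1 library left out. It was 2 in PA3 with no filter, with limma-voom, with a replicate block and with only the groups compared, and 3 with DESeq2; the added gene was Lhx8 in each, and Barx1 too with DESeq2. The cause was not tested. Counts in the other 6 comparisons stayed within 1.5 times of the main ones. The PA3 log2 fold change of Gbx2 ranged from -0.006 (without PA3 HIRE1del replicate 2) to 0.632 with 1 library left out, and that of Lhx6 between the mutant arches from -0.125 (without PA3 HIRE1del replicate 3) to 0.520. Without both WT libraries of replicate 1, an alternative chosen after seeing the data, 3 genes were called in PA2 and 1 in PA3. Over single genes, 746 alternative values kept direction and side of the threshold, 32 lost it, 9 gained it and 2 reversed.

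WT and HIRE1del libraries of 1 number, and those of different stages, did not all deviate together (r from -0.298 to 0.232), so the replicate block rests on a number only; 3 of 6 libraries in PA2 and 1 of 6 in PA3 correlated best with their own number. The replicate block within genotype changed no call. With only the groups compared, Pitx1 was under the filter between E12.5 and E14.5. At 3 counts per library, levels under 0.117 CPM could not be told from 0.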
